A study of Mus musculus with 24 samples.

Results

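The genes described here are 43 genes that copy DNA or open S phase, the phase of the cell cycle in which the genome is replicated, measured in the mammary glands of ovariectomized mice given progesterone or oil. They were taken from the arrays by gene symbol, and each gene was read from its probe set (a group of short probes for 1 transcript) with the highest mean log2 intensity over 24 arrays, among probe sets annotated to a single symbol. Such a probe set was found for 42 of the 43, out of 18193 genes with one, and Chaf1a was not analysed here. A gene was tested if its probe set exceeded the array's median intensity on 3 or more arrays, which 39 of the 42 did, among 12352 genes in all. Cdc6, Tyms and E2f1 did not pass, and their values come from a fit without that filter. Ccne2 and Dtl passed only through the progesterone arrays of 76 h, so that 37 members passed on other arrays.

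Nulliparous Balb/c females lost their ovaries at 6 weeks of age and were left for 2 weeks so that ovarian hormones could clear. All 8 groups share this ovariectomy, and the labels name no hormone other than progesterone. In 4 groups the mice received 1 mg of progesterone in 100 microliters of sesame oil under the skin each day, and the glands were taken 4, 16, 28 or 76 h from the first dose, so that mice of the 2 later times had received more than 1 dose. The 4 control groups received the same volume of oil and were killed at matching times; the number of oil injections is not given in the sources used here. Each array carries RNA from the glands of 5 pooled mice, with 3 arrays and 15 mice in a group, which the labels call biological replicates, so that p-values reflect the spread from pool to pool. The RNA is from the whole gland with its fat, vessels and lymphoid tissue, and a change can come from fewer or more cells of a type or from less or more RNA per cell, which cannot be told apart.

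In a dividing cell, the origin recognition complex, Cdc6 and Cdt1 load the ring-shaped MCM helicase onto DNA before S phase. Cyclin E with its kinase then helps to start S phase, Cdc45 and the GINS complex join the MCM ring to make it unwind DNA, and primase and the polymerases copy both strands behind it with the sliding clamp Pcna. Many of these genes are switched on together by E2F transcription factors at the end of G1. Progesterone is known to drive division of the epithelium of the adult gland and the side branching of its ducts.

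Intensities are linear and were deposited already scaled, and differences are given on the log2 scale as progesterone minus oil, where 1 is a doubling. Levels of different genes are not compared, because each probe set has its own brightness. Median intensities of the arrays lay between 62.8 and 70.2, and arrays of a group correlated at 0.966 to 0.993. Pgr, the progesterone receptor gene, which progesterone is known to lower, fell at 4 h by 2.45 (log2, 464 ± 46.6 in oil and 85.5 ± 15.6 under progesterone, SD, n = 3, limma adjusted p = 2.02e-07). Defining markers of the gland's epithelium (Krt8, Krt5) and fat (Adipoq) were measured on all arrays, as were those of skeletal muscle (Ckm) and T cells (Cd3e).

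The replication and S phase genes did not pass the test at 4, 16 or 28 h and rose broadly at 76 h. With limma and Benjamini-Hochberg adjustment over all 12352 genes, 24 of the 39 tested members were called higher at 76 h at an adjusted p under 0.05, and 0 were called lower. Over all genes tested, 11.1% were called higher and 6.70% lower in that comparison. The sign was positive for 37 of the 39 (54.0% of all genes), and 29 were higher at an unadjusted p under 0.05 (17% of all genes). The median change of the members was 0.57 on the log2 scale (1.48-fold), against 0.02 over all genes. At 4, 16 and 28 h 0 members were called in limma's own-time comparisons, where 0.186%, 0.308% and 2.53% of all genes were called in either direction. The count at an unadjusted p under 0.05 was 0 at 4 h, 1 higher and 11 lower at 16 h, and 0 higher and 8 lower at 28 h. Over all genes the share higher at that level was 3.45%, 4.54% and 6.95% at 4, 16 and 28 h, and the share lower was 9.16%, 13.1% and 5.47%. With arrays weighted by their quality, 3, 29 and 4 members were called at 4, 16 and 28 h, where 22.4%, 59.4% and 13.1% of all genes were. At 76 h that setting called 33 members higher and 1 lower, where 39.1% of all genes were called in either direction. Without the filter on low values, which a gene high at 76 h alone can pass, 22 of 42 members were called higher at 76 h. In that fit 11.6% of all genes were called in either direction at 76 h. With the filter, 22 of the 37 members that pass it on other arrays were called.

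**Figure D1:**
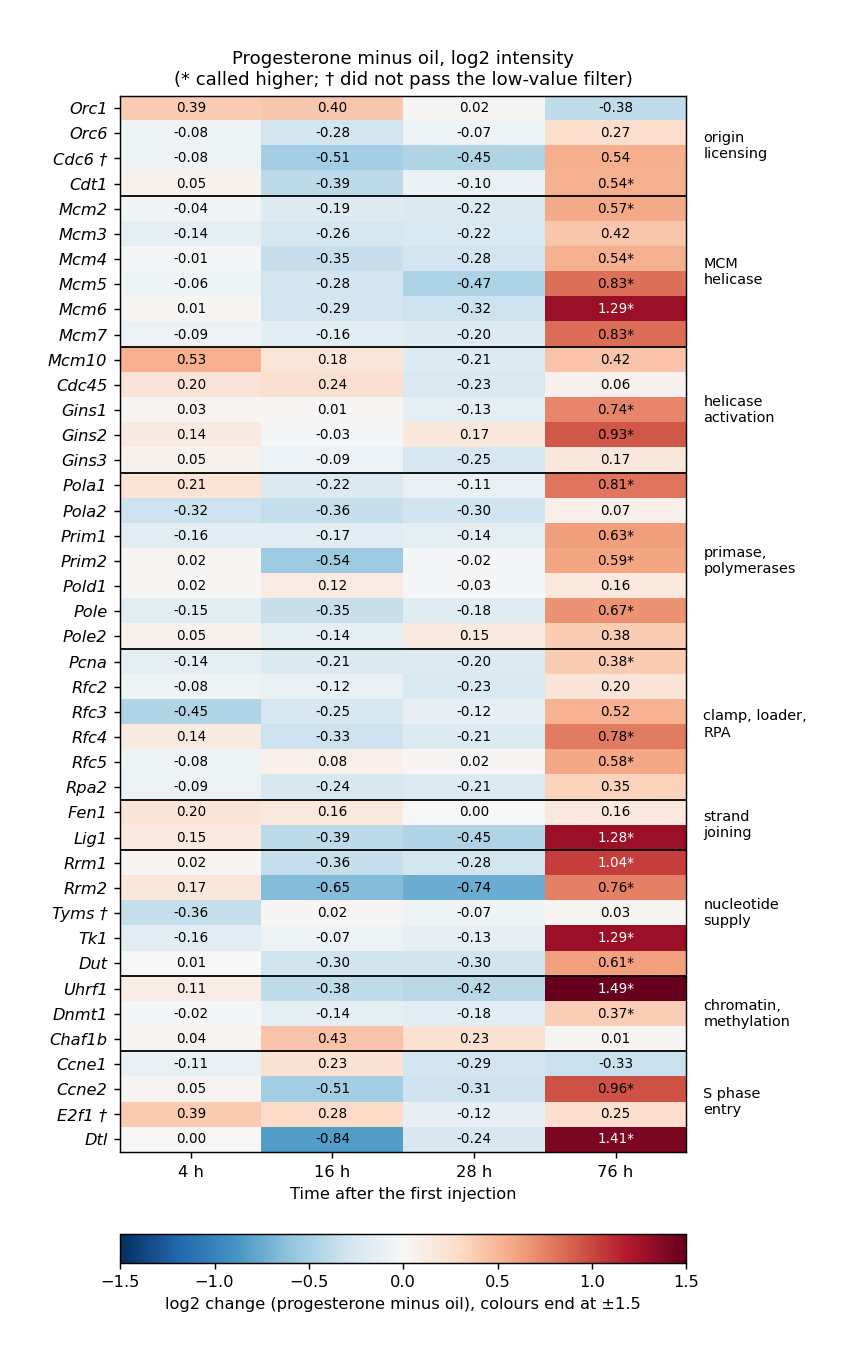
Change of 42 replication and S phase genes (rows, by role) as progesterone minus oil on the log2 scale at 4, 16, 28 and 76 h (columns), from means of 3 arrays a group; red is higher under progesterone. Asterisks mark the 24 genes called higher at 76 h, and daggers mark Cdc6, Tyms and E2f1, which did not pass the filter on low values.

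The MCM helicase is a ring of the products of Mcm2 to Mcm7, and 5 of the 6 genes were called higher at 76 h. Mcm6 moved most: its intensity was 1396, 1248 and 1166 on the progesterone arrays and 488, 543 and 523 on the oil arrays of 76 h. On the other 18 arrays of 4, 16 and 28 h it reached at most 896, so that the progesterone arrays of 76 h lay above all others. Its change was 1.29 ± 0.14, adjusted p = 5.9e-07 (SE, limma), a 2.45-fold rise. Mcm7 read 1815, 1595 and 1433 against 892, 980.3 and 839 in oil and rose by 0.83 (adjusted p = 8.94e-07), again above all 21 other arrays. Mcm5 was at 811, 705 and 578 against 352, 418 and 404 and rose by 0.83 (adjusted p = 0.00121). Its lowest progesterone array of 76 h lay below all 3 oil arrays of 28 h, which read 624, 662 and 645. Smaller rises were seen for Mcm2, with 514, 552 and 429.9 against 284, 372 and 354 (log2 change 0.57 ± 0.16, adjusted p = 0.0131), and for Mcm4, with 624, 628 and 499 against 399.6, 406 and 396 (log2 change 0.54 ± 0.12, adjusted p = 0.00317). Mcm3 read 287, 326 and 275 against 203, 223 and 239, so that its groups did not overlap, but its change of 0.42 missed the threshold by a small margin (adjusted p = 0.05001).

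Origin licensing gave fewer calls. Cdt1, which brings the MCM ring to the origin, was the only one of 3 tested licensing genes to pass, with 562, 525 and 366 under progesterone and 308, 362 and 317 in oil (log2 change 0.54 ± 0.14, adjusted p = 0.0112); the lowest progesterone array was just above the highest oil array. Orc6, a subunit of the origin recognition complex, read 296, 301 and 271 against 228, 254 and 239.6, without overlap and without a call (log2 change 0.27 ± 0.12, adjusted p = 0.133). Orc1, the large subunit of the same complex, was the tested member with the lowest change, at 45.2, 51.5 and 50.6 against 71.8, 61.6 and 58.4 (log2 change -0.38 ± 0.21, adjusted p = 0.25). It is the only tested member whose 3 progesterone arrays of 76 h all lay below the 3 oil arrays. For Cdc6, the loader of the MCM ring, the dim probe set read 67.8, 51.6 and 50 against 29.2, 43.3 and 44.7 (log2 change 0.54 ± 0.27, adjusted p = 0.243 in the fit without the filter).

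Among 5 genes that turn the loaded helicase into an active one, 2 were called, both of them GINS genes. Gins2 was at 147, 126 and 101 under progesterone and 64, 69.2 and 60.6 in oil at 76 h, and at most 88.7 on any other array (log2 change 0.93 ± 0.18, adjusted p = 0.000524). Gins1 was at 165, 146 and 119 against 77.4, 76.4 and 104 (log2 change 0.74 ± 0.18, adjusted p = 0.00461). Another GINS gene, Gins3, read 90.8, 99.4 and 66.1 against 68.1, 91.8 and 67, with overlapping groups (log2 change 0.17 ± 0.18, adjusted p = 0.586). Cdc45, which rides with GINS on the helicase, read 182, 177 and 128 against 144, 195 and 129 and was not called (log2 change 0.06 ± 0.24, adjusted p = 0.901). Its arrays scattered within groups, for instance at 16 h with 147, 241 and 339 under progesterone and 142, 200.4 and 255 in oil. Mcm10, a factor that helps to start unwinding, read 74.3, 90.9 and 49.3 against 40.7, 67.3 and 50.4 (log2 change 0.42 ± 0.26, adjusted p = 0.287).

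Primase and the polymerases gave 4 calls in 7 genes. Pola1, the catalytic subunit of polymerase alpha, which extends the primer, read 229.9, 216 and 159 against 116, 121 and 105 in oil, and no other array exceeded 138 (log2 change 0.81 ± 0.17, adjusted p = 0.00186). The primase genes were called too: Prim1 read 521, 438 and 379.9 against 289, 318 and 257 (log2 change 0.63 ± 0.14, adjusted p = 0.00296) and Prim2 read 187, 169 and 138 against 112, 111 and 102 (log2 change 0.59 ± 0.18, adjusted p = 0.0256). Pole, the catalytic subunit of the leading strand polymerase epsilon, read 121, 116 and 101 against 69.7, 64.4 and 77.2 (log2 change 0.67 ± 0.19, adjusted p = 0.0146), while its partner Pole2 was at 198, 197 and 145 against 135, 138 and 137 without a call (log2 change 0.38 ± 0.14, adjusted p = 0.0612). Pola2, the other subunit of polymerase alpha, overlapped with oil at 188, 213 and 203 against 166, 213 and 196 (log2 change 0.07 ± 0.17, adjusted p = 0.82). Pold1, the catalytic subunit of polymerase delta, also overlapped, at 284, 302 and 234 against 205, 308 and 229 (log2 change 0.16 ± 0.13, adjusted p = 0.46).

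Of the clamp, its loader and the single-strand binding protein, 3 of 6 genes were called. Pcna, the bright clamp gene, read 3111, 3069 and 2524 against 2119.9, 2363 and 2189 at 76 h (log2 change 0.38 ± 0.13, adjusted p = 0.039), and its lowest progesterone array of 76 h lay below the 3 oil arrays of 16 h at 2784, 2665 and 2537. Among the clamp loader genes Rfc4 rose most, from 168, 203 and 178 in oil to 384, 315 and 253 (log2 change 0.78 ± 0.15, adjusted p = 0.000464). Rfc5 rose from 253, 227 and 275 to 427, 382 and 321 (log2 change 0.58 ± 0.15, adjusted p = 0.00668). Rfc3 had a change of similar size, from 102, 117 and 114 to 189, 161 and 133, but a larger error (log2 change 0.52 ± 0.23, adjusted p = 0.125). Rfc2 and Rpa2, a subunit of the protein that coats single-stranded DNA, were not called, with log2 changes of 0.20 ± 0.13, adjusted p = 0.331 and 0.35 ± 0.15, adjusted p = 0.121.

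Of 2 genes for joining the lagging strand, 1 was called. Lig1, the ligase that seals Okazaki fragments, read 394, 354 and 382 under progesterone and 134, 157 and 175 in oil at 76 h, a 2.44-fold rise (log2 change 1.28 ± 0.16, adjusted p = 4.01e-06). Fen1, the nuclease that trims the same fragments, read 499, 512 and 415 against 422, 458 and 393, with overlapping groups (log2 change 0.16 ± 0.13, adjusted p = 0.462). A dimmer probe set of Fen1 changed by 0.50 without a call (adjusted p = 0.09 over all probe sets of the tested genes). The ratio of Lig1 to Fen1 given below uses the brighter one.

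The supply of DNA building blocks was the role in which all tested genes were called. Rrm1, the large subunit of ribonucleotide reductase, rose from 278, 342 and 316 to 736, 623 and 569 (log2 change 1.04 ± 0.13, adjusted p = 2.61e-06). Tk1, the thymidine kinase of S phase, rose from 93.8, 133 and 102 to 330.0, 275 and 204 (log2 change 1.29 ± 0.17, adjusted p = 8.63e-06). For both, the 3 arrays lay above all 21 others. Dut, which removes dUTP, rose from 479, 509 and 545 to 837, 776 and 731 (log2 change 0.61 ± 0.12, adjusted p = 0.000655). Rrm2, the small reductase subunit, was called with groups that overlapped, 671, 577 and 369.7 against 244, 396 and 305 (log2 change 0.76 ± 0.24, adjusted p = 0.0275). Tyms, thymidylate synthase, stayed dim at 49.9, 31.1 and 46 against 41.4, 39.5 and 40.7 (log2 change 0.03 ± 0.19, adjusted p = 0.959, fit without the filter).

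Uhrf1, which recognises hemimethylated DNA behind the fork and brings in the maintenance methyltransferase, had the largest change of all members at 76 h. It read 319, 289.6 and 247 under progesterone and 79, 116 and 111 in oil, a 2.82-fold rise (log2 change 1.49 ± 0.21, adjusted p = 1.98e-05). The methyltransferase gene Dnmt1 rose from 599, 589.9 and 619 to 785, 802 and 748 (log2 change 0.37 ± 0.12, adjusted p = 0.0292). Chaf1b, a subunit of the factor that places histones on new DNA, read 112, 123 and 112 against 115, 109.9 and 119 on the probe set the rule chose (log2 change 0.01 ± 0.18, adjusted p = 0.973), but a dimmer probe set of the same gene was called higher by 0.59 (adjusted p = 0.0165 over all probe sets of the tested genes).

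Of the cyclin E genes, whose products open S phase with their kinase, 1 of 2 was called. Ccne2 read 92.8, 84 and 76 against 37.7, 54.9 and 39.2 and was called (log2 change 0.96 ± 0.20, adjusted p = 0.00131), while Ccne1 read 48.9, 70.6 and 46.3 against 77.4, 47.7 and 86.9 (log2 change -0.33 ± 0.34, adjusted p = 0.563). Dtl, a receptor of the ubiquitin ligase that removes Cdt1 in S phase, read 156, 125 and 104 against 43.3, 49 and 51, a 2.66-fold rise (log2 change 1.41 ± 0.22, adjusted p = 5.22e-05). E2f1 itself read 49.7, 40.7 and 50.8 against 33.4, 38.2 and 48.2 (log2 change 0.25 ± 0.21, adjusted p = 0.554, fit without the filter). Ccne2 and Dtl are the genes that passed the filter only through these arrays, so that their calls were favoured by it.

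**Figure D2:**
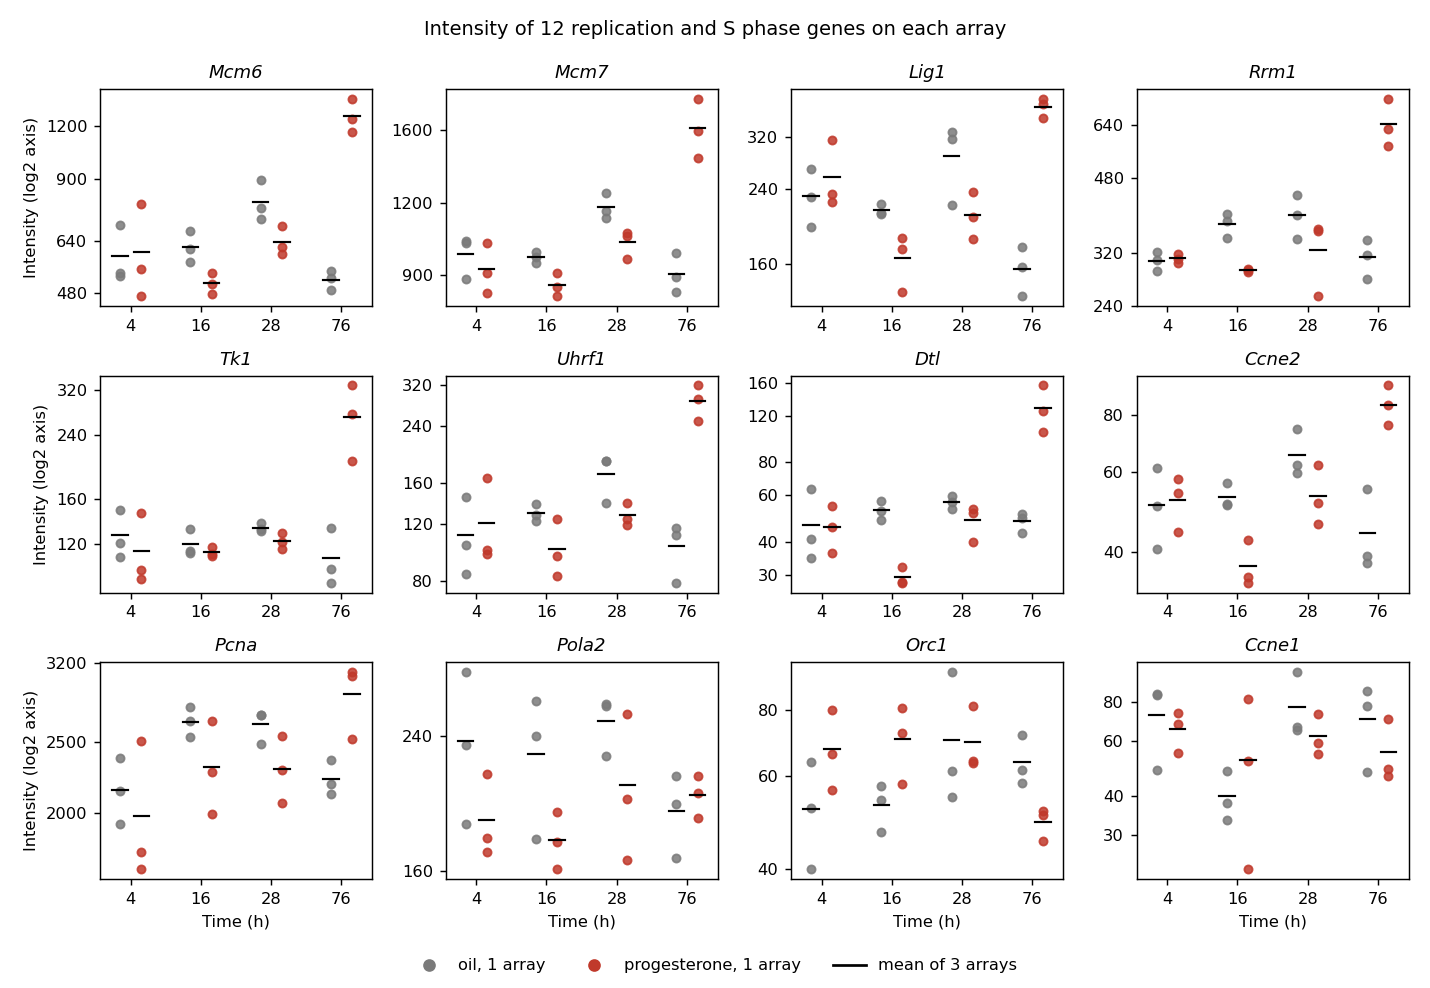
Intensity of 12 genes on each of the 24 arrays (points, log2 axis) by hours after the first injection (grey, oil; red, progesterone), with the mean of 3 arrays as a bar. For Mcm6, Mcm7, Lig1, Rrm1, Tk1, Uhrf1, Dtl and Ccne2 the 3 progesterone arrays of 76 h lie above the other 21 arrays; those of Pcna, Pola2, Orc1 and Ccne1 do not.

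On all 3 progesterone arrays of 76 h, 17 of the 39 tested members lay above every one of the 21 other arrays, against 8.90% of all genes tested; 15 of the 37 members that passed the filter on other arrays did so. In the comparison with the oil arrays of 76 h alone, 29 members did not overlap with oil in the higher direction and 1, Orc1, in the lower, against 25.8% and 18.9% of all genes. For 10 pairs of genes whose products work in 1 complex or step, the ratio of their values is given. Within each array the log2 ratio of Mcm6 to Mcm3 was higher by 0.87 under progesterone than in oil at 76 h, that of Lig1 to Fen1 by 1.12, that of Ccne2 to Ccne1 by 1.29, that of Uhrf1 to Dnmt1 by 1.13 and that of Pola1 to Pola2 by 0.73. The ratio of Mcm6 to Mcm4 was higher by 0.76, to Mcm2 by 0.72, to Mcm5 by 0.47 and to Mcm7 by 0.46. Ccne2 passed the filter on low values only through the progesterone arrays of 76 h, which favoured its ratio to Ccne1. The SD of that ratio on the oil arrays of 76 h was 0.75. The ratio of Rrm1 to Rrm2 differed by 0.28, with overlapping groups (exact permutation test, two-sided p = 0.3), and in the other 9 of the 10 pairs the groups did not overlap. For these 9 the exact permutation test gave p = 0.1, the smallest that 3 against 3 arrays allow (0.111 adjusted over the 10 pairs). The pairs were chosen after their values were seen, which favoured groups that do not overlap. Neither the test nor this count therefore shows a difference. The share of other gene pairs without overlap is not given here.

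The 3 progesterone arrays of 76 h were not alike. Replicate 3 was the lowest of the 3 for 36 of the 39 tested members and for 23 of the 24 that were called. The mean deviation of the 39 members from their average over all arrays (log2) was 0.57, 0.51 and 0.22 on these arrays. The same score of 34 mitosis genes was 1.42, 1.19 and 0.85 on them, whereas that of 13 luminal epithelial markers was 1.20, 1.01 and 1.13. The part of this array in the results was not tested beyond leaving it out. When each array was left out in turn, between 16 and 26 members were called at 76 h: 16 without replicate 1 of the progesterone arrays of 76 h, and 16 of the 24 genes passed in all 24 such fits. The other 8 lost the call in some fits, Cdt1 and Mcm2 without oil array 1 or progesterone array 1 or 2 of 76 h, Pole without oil array 2 or progesterone array 1 or 2, Rfc5 without progesterone array 1, and Rrm2 without oil array 1 or 3 or progesterone array 1 or 2. Dnmt1, Pcna and Prim2 lost it without any 1 of the oil arrays or without progesterone array 1 or 2. The highest adjusted p in such a fit was 0.0947 for Cdt1, 0.0909 for Mcm2, 0.0691 for Pole, 0.0571 for Rfc5, 0.169 for Rrm2, 0.0909 for Dnmt1, 0.161 for Pcna and 0.136 for Prim2.

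Other probe sets bear on the choice of 1 per gene. For 21 tested members another 29 probe sets passed the filter; 28 of them had the sign of the chosen one at 76 h, 16 were called higher and 0 lower. Mcm3 shows both sides: 1 of its other probe sets was called higher by 0.60 (adjusted p = 0.0156) and 1 read -0.22 (adjusted p = 0.685).

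The oil arrays of the same time are only part of the controls. Set against the 9 oil arrays of 4, 16 and 28 h instead of those of 76 h, the progesterone arrays of 76 h were called higher for 24 members as well (16.9% of all genes were called higher), with a median change of 0.42. Both comparisons use the same progesterone arrays, and their values are given side by side as such. The rise of Lig1 was 1.28 against its own oil and 0.65 against the other oil, that of Mcm6 1.29 and 0.94, and that of Mcm5 0.83 and 0.42. For Tk1 the values were 1.29 and 1.07, and for Dtl 1.41 and 1.31. Mcm2, Pcna and Rrm2 were not called against the other oil arrays (adjusted p = 0.0812, 0.0959 and 0.0977), while Mcm3, Orc6 and Pole2 were (adjusted p = 0.0437, 0.0357 and 0.0139). Without the filter on low values, 23 of 42 members were called higher against the other oil arrays. Of all genes 22.4% were then called in either direction.

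**Figure D3:**
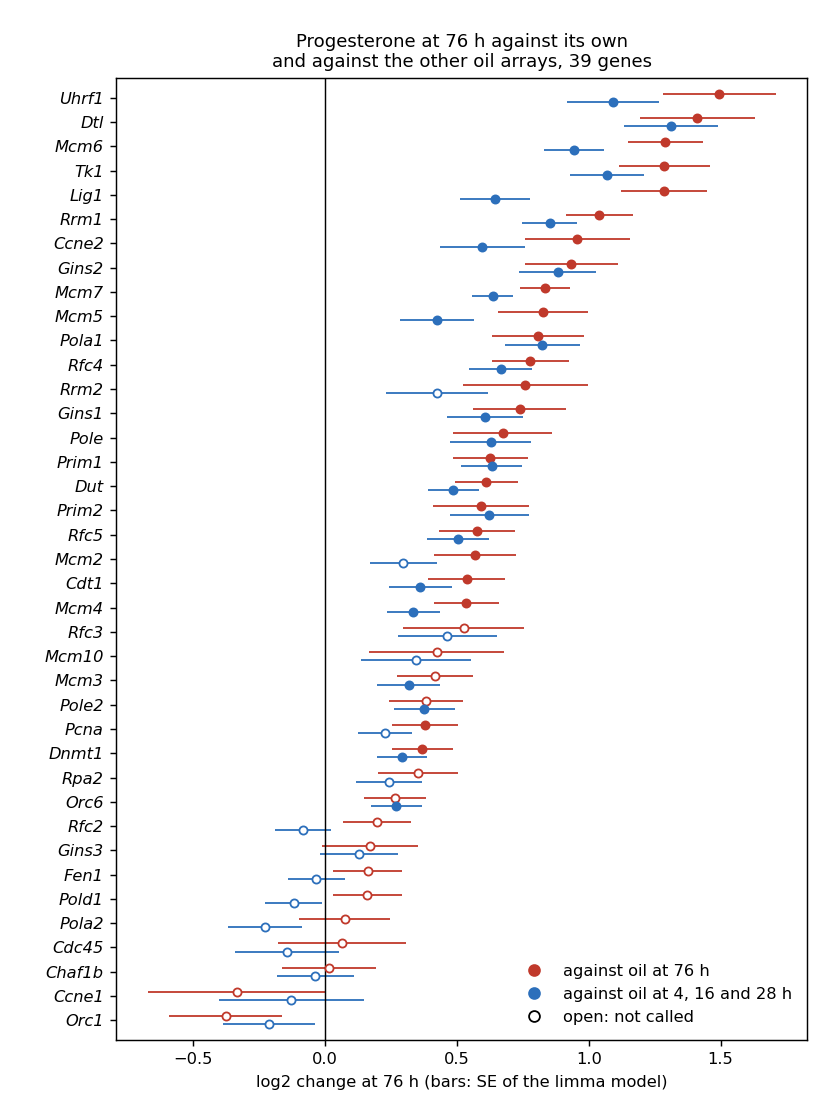
Change of the 39 tested members at 76 h (log2, bars show the SE of the limma model) against the 3 oil arrays of 76 h (red) and the 9 oil arrays of 4, 16 and 28 h (blue); filled points were called. Points of Lig1, Mcm6, Mcm5 and Ccne2 lie further left against the other oil arrays, and 24 genes were called in each comparison.

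The oil arrays of 28 h stood apart from the other oil arrays. They were higher than the other 9 for 36 of the 39 members (41.9% of all genes), with a median difference of 0.22, against -0.03 over all genes. In that comparison 5 members were called higher, where 1.50% of all genes were, and 4 did not overlap with the other oil arrays, where 1.47% did not. These were Uhrf1, with 187, 187 and 138 at 28 h against a median of 116 over the other 9 oil arrays (log2 difference 0.60 ± 0.17, adjusted p = 0.0372), Mcm5 with 624, 662 and 645 against 432 (0.56 ± 0.14, adjusted p = 0.0129), Lig1 with 328, 317 and 220.2 against 209.6 (0.53 ± 0.13, adjusted p = 0.0138), Mcm6 with 896, 768 and 720.2 against 543 (0.47 ± 0.12, adjusted p = 0.0121) and Mcm7 with 1246, 1161 and 1129 against 965 (0.32 ± 0.08, adjusted p = 0.0113). For Lig1 and Uhrf1 the third oil array of 28 h lay within the range of the other oil arrays. The 4 members without overlap were Mcm3, Mcm5, Mcm6 and Mcm7. Without oil array 1 of 28 h 1 member was called, and without oil array 3 of 4 h 8 were. An F-test of the 4 oil groups called 4 of the 39 members, Mcm5, Mcm6, Mcm7 and Lig1, a share below the 12.2% of all genes called, 1 without oil array 1 of 28 h and 6 without oil array 3 of 4 h.

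Markers of other cells moved with the same oil arrays. Over 11 B and plasma cell markers, 4 were called higher in oil at 28 h than in the other oil groups, with a median difference of 0.41; their summed intensity was 26852 to 27679 there, 18771 to 22742 at 4 h, 19532 to 21839 at 16 h and 15956 to 19194 at 76 h. In that comparison 1.50% of all genes were called higher and 6.10% lower. Of 12 matrix markers 11 were called lower, of 11 macrophage markers 8 were called lower, and of 12 skeletal muscle markers 5 were called lower. Their part in the level of the replication genes was not tested.

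At 16 and 28 h most members read lower under progesterone than in their own oil, without a call. The sign was negative for 30 of 39 at 16 h, where it was for 64.7% of all genes, and for 33 of 39 at 28 h, where it was for 49.1%. At 16 h 14 members lay below their oil arrays without overlap and 2 above (11.7% and 5.37% of all genes), and at 28 h 8 below and 0 above (5.24% and 6.79%). The median changes were -0.22 and -0.21, against -0.07 and 0.00 over all genes. Dtl had the largest difference at 16 h, with 32.1, 28.2 and 27.9 under progesterone and 52.5, 56.8 and 48.4 in oil (log2 change -0.84 ± 0.22, adjusted p = 0.115), and it was called lower against the 9 oil arrays of 4, 28 and 76 h (log2 change -0.75 ± 0.18, adjusted p = 0.0183). Rrm2 read 299.6, 257 and 233 against 351, 421 and 464 at 16 h (log2 change -0.65 ± 0.24, adjusted p = 0.196) and 207, 395 and 327 against 531, 458 and 515 at 28 h (log2 change -0.74 ± 0.24, adjusted p = 0.11). Ccne2 read 42.5, 35.1 and 34.2 against 50.6, 56.6 and 50.8 at 16 h (log2 change -0.51 ± 0.20, adjusted p = 0.219). Chaf1b was the member with the highest change at 16 h, at 136, 178 and 187 against 109, 128 and 135 (log2 change 0.43 ± 0.18, adjusted p = 0.235). Its dimmer probe set changed by only 0.08 at 16 h (limma adjusted p = 0.822 over all probe sets of the tested genes). On the chosen probe set Chaf1b was called higher against the same 9 arrays (log2 change 0.52 ± 0.15, adjusted p = 0.0432). In that comparison 2.29% of all genes were called higher and 2.23% lower. It gave 4 member calls after quantile normalization (6.13% of all genes called) and 11 with arrays centred on their medians (11.9%), all of the members lower, 8 without progesterone array 1 of 16 h and 0 without array 2. Without progesterone array 1 of 16 h, 5 members were called against their own oil at 16 h, Orc6, Mcm4, Prim2 and Dtl lower and Chaf1b higher. For this and the other counts with 1 array left out, the share of all genes called is not given here. Such counts describe how the calls depend on single arrays and are not read as a response of the members.

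The lower readings at 28 h were not seen against other oil arrays. Against the oil arrays of 4, 16 and 76 h, the progesterone arrays of 28 h had a positive difference for 23 of the 39 members (38.4% of all genes), a median of 0.05 and 0 calls in limma (0.874% of all genes were called), with 2 members higher and 0 lower at an unadjusted p under 0.05 (4.73% and 8.52% of all genes). Mcm5 shows this: its progesterone arrays of 28 h read 352, 568 and 501, its oil arrays of that time 624, 662 and 645, and the other 9 oil arrays 352 to 544. At 16 h the median against the other oil arrays was -0.18, with 31 of 39 negative (55.6% of all genes). Without progesterone array 2 of 28 h, 2 members (Rrm2 and Dut) were called against their own oil at 28 h, and without oil array 3 of 28 h 1 (Lig1) was. Against the other oil, 1 was called without progesterone array 3 of 28 h.

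At 4 h the members scattered around 0, with a median change of 0.01 and 21 of 39 positive (47.6% of all genes). Fen1 alone did not overlap with its oil arrays, and was higher (6.12% of all genes were apart and higher, 12.8% apart and lower). Its dimmer probe set had the other sign, at -0.24 (limma adjusted p = 0.632 over all probe sets of the tested genes). The largest changes were those of Mcm10 (60.7, 55.1 and 81.5 against 42.5, 34.4 and 62, log2 change 0.53 ± 0.26, adjusted p = 0.4) and Rfc3 (62.5, 65.2 and 105 against 86.2, 95.7 and 132, log2 change -0.45 ± 0.23, adjusted p = 0.426). Against the 9 oil arrays of 16, 28 and 76 h, Pcna and Rfc3 were called lower (log2 changes -0.36 ± 0.10, adjusted p = 0.0391 and -0.65 ± 0.19, adjusted p = 0.0401, where 3.46% of all genes were called lower), with 1769, 1672 and 2501 for Pcna at 4 h. That comparison gave 0 calls without progesterone array 1 of 4 h and 4 without array 3. Against its own oil at 4 h Pcna changed by -0.14 ± 0.13, and neither gene was called. The oil arrays of the other times differ from the 4 h arrays in time as well, and the part of time was not tested. In both 4 h groups replicate 3 had the highest mean score of the members, 0.02 in oil and 0.09 under progesterone.

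Over the 4 progesterone groups alone, an F-test called 27 of the 39 members (27.2% of all genes). The 4 differences from oil were unequal for 19 members (10% of all genes), and the response at 76 h exceeded that at 28 h for 19 (4.52% of all genes). Without the 6 arrays of 28 h in the fit, an alternative added after the values were seen, the counts of members called at 4, 16 and 76 h were 0, 0 and 25. The shares of all genes called in that fit are not given here, so these counts only describe how the calls depend on those arrays.

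Other genes of the cell cycle were read beside the members. Over all genes 11.1% were called higher and 6.70% lower at 76 h. Of 25 other replication genes tested, 4 were called higher at 76 h and 1 lower, near those shares, with a median change of 0.20. Dbf4 and Cdc7, the kinase pair that fires origins, rose by 0.85 and 0.79 (adjusted p = 0.000492 and 0.00541), and the helicase gene Recql4 fell by 0.61 (adjusted p = 0.0485). Of 30 other S phase genes known as E2F targets, 10 were called higher and 0 lower, with a median of 0.34. Ccna2, the cyclin of S phase and G2, rose by 1.43 (adjusted p = 0.00202), and E2f7, a repressor among the E2F factors, by 0.79 (adjusted p = 0.0138). Of 34 mitosis genes, 32 were called higher at 76 h, with a median of 1.45. Melk, Ccnb2, Ttk and Cdk1 rose most among them, by 2.17, 2.05, 2.03 and 2.00 (adjusted p = 9.23e-05, 1.18e-06, 1.34e-05 and 2.34e-07). At 28 h 5 mitosis genes were called lower than in their own oil, with a median of -0.61 over the 34. In that comparison 0.591% of all genes were called lower. The mean score of the mitosis genes was -0.32 under progesterone at 28 h and 0.21 in oil at 28 h. In oil at 4, 16 and 76 h it was -0.26, -0.01 and -0.26. The part of the higher oil arrays of 28 h in these calls was not tested.

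Markers of the epithelium rose at the same time. Of 13 luminal markers 12 were called higher at 76 h and 0 lower, with a median of 1.44; their summed intensity was 19838 to 22409.5 on the progesterone arrays and 7324 to 9090.5 on the oil arrays of 76 h. Of 14 basal markers 11 were called higher, with a median of 1.09 and summed intensities of 14033 to 14726 against 8806 to 9654. Krt8, a luminal keratin, was at 2963 ± 177 against 796 ± 73.9 (SD, n = 3), and Krt5, a basal keratin, at 757 ± 59.5 against 199 ± 32.8. Lymphocyte markers went the other way: 6 of 10 T cell markers and 4 of 11 B and plasma cell markers were called lower, with medians of -0.51 and -0.47. The summed T cell markers read 5036 to 5387 under progesterone and 7019 to 7473 in oil, and the B and plasma cell markers 11574 to 15471 against 15956 to 19194. Of 10 endothelial and 10 fat cell markers 5 and 3 were called lower, and of 12 matrix markers 10 were called higher. The part of these shifts in the rise of the replication genes was not tested.

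At 28 h the 3 progesterone arrays differed in their scores. The score of the 39 members was -0.15, 0.05 and 0.00 for replicates 1, 2 and 3. Replicate 1 was thus the array apart, and it was the lowest of the 3 for 23 of the 39 members. The luminal score (0.29, -0.48 and -0.01) was lowest and the B and plasma cell score (-0.18, 0.35 and -0.10) highest on replicate 2. The part of either marker score in the members' values was not tested.

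**Figure D4:**
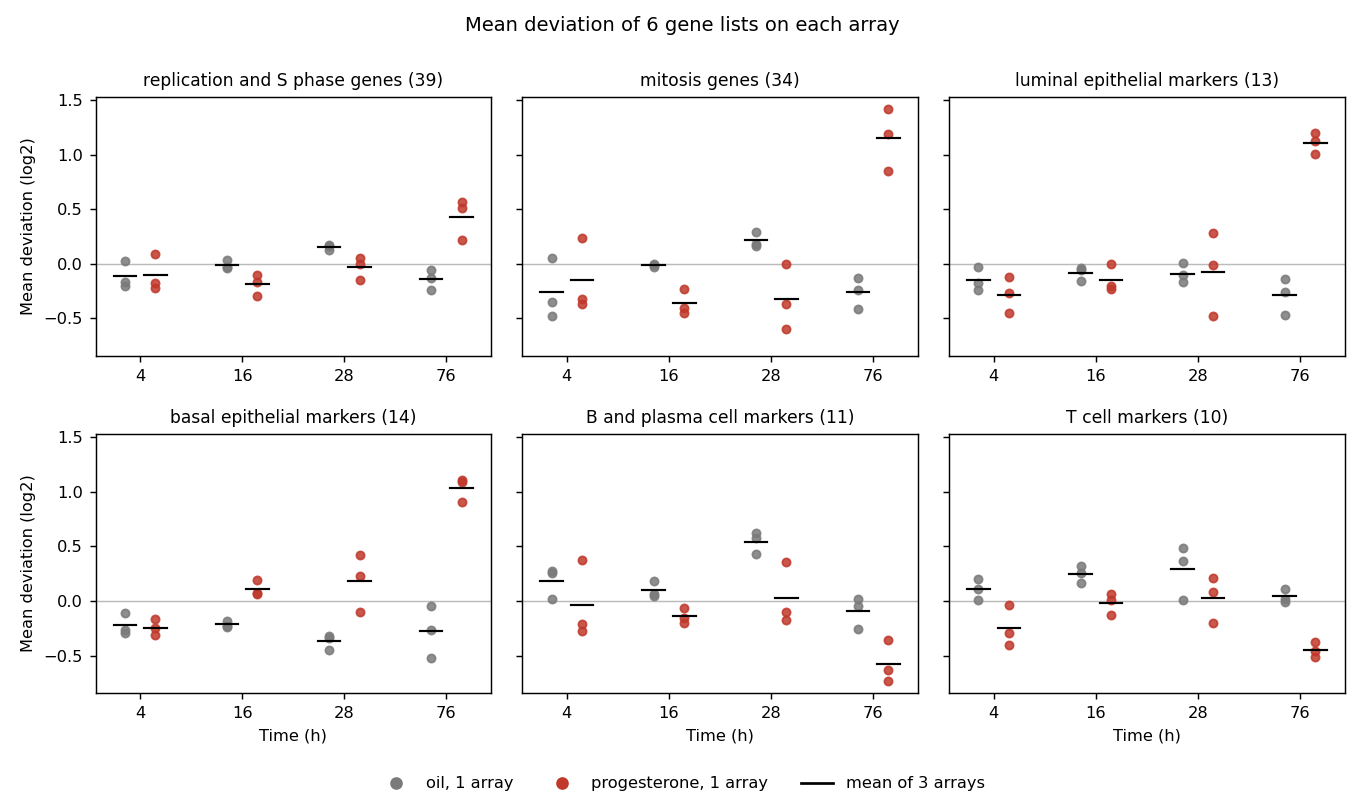
Mean deviation of 6 gene lists on each array (points, log2, relative to each gene's mean over the 24 arrays) by hours after the first injection, with group means as bars; the number of genes is in each title. The group means of the replication and S phase genes, the mitosis genes and both epithelial lists are highest under progesterone at 76 h, where those of the B and plasma cell and T cell lists are lowest.

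Because many members were called together, the DNA before their start sites was read for E2F words. RefSeq promoter sequences (build GRCm38.p6) were found for 36 of the 43 genes. The words searched were TTTCGCGC, TTTGGCGC and TTTCCCGC, on either strand and counted where they overlap, in the 250 bases before a start. A match was found for 11 of the 36 members (30.6%), for 1.78% of the 27025 genes in the table and for 3.35% of the 9952 table genes tested on the arrays. Among members called higher at 76 h 7 of 18 held a match, and among tested members that were not called 3 of 14. The other 4, not tested on the arrays, include Cdc6 with a match. CCAAT, the word bound by NF-Y, was found for 58.3% of the members, 37.5% of all genes and 39.9% of those tested. TTTGAA, the core of the cell cycle element called CHR, was found for 13.9%, 18.3% and 13.1%. Of 32 mitosis genes, 3.13% held an E2F word, 75.0% CCAAT and 37.5% TTTGAA. A match is a description of letters and not a bound site, and several members are textbook E2F targets, so that their share is not independent evidence.

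The 120 bases before the start are shown for 6 members that differ in their words and in their response, with E2F words in capitals on either strand. Mcm6, Dtl, Gins3, Orc1 and Rfc3 are the 5 members with a match in this window, and Tk1 is a member that rose without one. They were read from chr1:128359706-128359825, minus strand (Mcm6), chr1:191575545-191575664, minus strand (Dtl), chr8:95633439-95633558, plus strand (Gins3), chr4:108579334-108579453, plus strand (Orc1), chr5:151651209-151651328, minus strand (Rfc3) and chr11:117826015-117826134, minus strand (Tk1), each written 5′ to 3′ toward the gene.
Mcm6: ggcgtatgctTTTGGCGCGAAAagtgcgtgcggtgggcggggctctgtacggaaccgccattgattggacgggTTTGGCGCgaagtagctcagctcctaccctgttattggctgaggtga
Dtl: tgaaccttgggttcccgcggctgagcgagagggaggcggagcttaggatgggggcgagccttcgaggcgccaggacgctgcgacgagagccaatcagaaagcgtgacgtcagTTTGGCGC
Gins3: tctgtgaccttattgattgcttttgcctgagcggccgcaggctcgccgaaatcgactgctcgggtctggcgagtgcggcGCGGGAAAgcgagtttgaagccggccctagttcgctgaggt
Orc1: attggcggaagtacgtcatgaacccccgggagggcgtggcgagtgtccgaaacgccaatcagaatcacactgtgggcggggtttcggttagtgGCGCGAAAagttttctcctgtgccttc
Rfc3: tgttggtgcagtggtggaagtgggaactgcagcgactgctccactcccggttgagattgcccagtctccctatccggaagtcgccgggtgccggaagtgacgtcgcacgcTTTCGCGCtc
Tk1: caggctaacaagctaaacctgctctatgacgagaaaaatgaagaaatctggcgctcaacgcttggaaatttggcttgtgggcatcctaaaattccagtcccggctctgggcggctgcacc
Mcm6, whose window holds 3 matches of which 2 overlap, rose by 1.29, and Dtl, whose match ends at the start, by 1.41. Gins3, Orc1 and Rfc3 hold 1 match each and were not called, with changes of 0.17, -0.38 and 0.52. Tk1 holds none of these words in the 250 bases and rose by 1.29. Members with and without a word thus stood on both sides of the threshold.

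**Figure D5:**
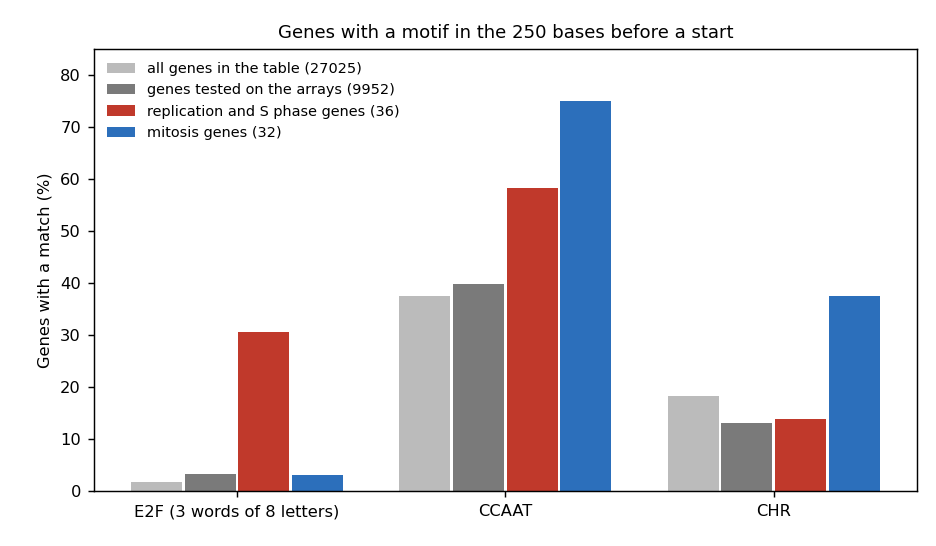
Share of genes with a match to 3 E2F words, CCAAT or TTTGAA (CHR) in the 250 bases before a RefSeq start (vertical axis, percent, from 0), for all genes in the table, genes tested on the arrays, the 36 replication and S phase genes and 32 mitosis genes. E2F words reach 30.6% among the replication and S phase genes, and CCAAT and TTTGAA are most frequent among the mitosis genes.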

How the data were processed

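Total RNA of whole glands, extracted with Trizol and pooled from 5 mice, was labelled in 1 cycle, per the labels' protocols, and hybridised to an Affymetrix array of the mouse transcriptome. The deposited values are linear intensities of 45101 probe sets on 24 arrays, made comparable between arrays by the authors; the summary and normalization software is not given in the sources used here. The number of arrays and, for dim probe sets, the signal limit the precision.

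Values under 7.38, the 10th percentile, were raised to that floor before taking log2. Gene symbols came from the platform annotation, and 34945 probe sets carried 1 symbol. All 12352 genes passing the filter on low values entered 1 limma model with 8 group means (16 residual degrees of freedom, moderated with an intensity trend), and p-values were adjusted over all of them by Benjamini-Hochberg; adjusted p-values in the text are from limma (R 4.3.3, limma 3.58.1, statmod 1.5.0). Differences between own oil, other oil and time groups are contrasts of this model, and arrays were not treated as paired by number. The fit was tested on simulated data. Every member could be named, with the values on each array for called members and those with the largest changes, and 4 or fewer called genes of other lists. The members and lists were chosen with earlier results of these data known. Alternatives covered the floor, filter, scaling, probe set choice, variance model, threshold, replicate block and each array left out. Some markers were not analysed here.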

Additional observations from a re-analysis of the deposited data

Results flagged for a closer look

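The response of the replication and S phase genes to progesterone differed between times. In limma's test of unequal responses over the 4 times, 19 members were called, and 19 were called in the test of the response at 76 h minus the response at 28 h, all of them higher. That difference of log2 changes was 1.91 for Uhrf1, 1.74 for Lig1, 1.65 for Dtl, 1.61 for Mcm6 and 1.50 for Rrm2. It was 1.41 for Tk1, 1.32 for Rrm1, 1.30 for Mcm5, 1.26 for Ccne2 and 1.04 for Mcm7. It lay under 1 for the other 9, at 0.98 for Rfc4, 0.92 for Pola1, 0.91 for Dut, 0.87 for Gins1, 0.82 for Mcm4, 0.79 for Mcm2, 0.76 for Prim1, 0.58 for Pcna and 0.54 for Dnmt1. Both responses enter this difference, and the oil arrays of 28 h that stand in 1 of them were themselves higher than the other oil arrays for Uhrf1, Mcm5, Lig1, Mcm6 and Mcm7. Dtl and Ccne2 passed the filter on low values only through the progesterone arrays of 76 h, which favoured their calls here.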

How the results depend on the processing

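Over the alternatives other than leaving out an array, 21 of the 24 calls at 76 h were kept; Pcna lost its call without the filter, without the intensity trend and with the replicate block (highest adjusted p = 0.0716, limma), Rrm2 without the filter (0.0570) and Dnmt1 with centred arrays (0.0503). No member reversed. Against oil of the other times, the calls at 4 h were 0 without the filter and without the trend (3.13% and 5% of all genes), and 4 with probe sets averaged per gene (8.68%). At 16 h they were 1 without the filter (2.33%) and with a filter on the mean (4.11%), 4 with quantile normalization (6.13%), 11 with centred arrays (11.9%) and 7 at an adjusted p under 0.10 (9.49%). At that threshold 10 members were called in oil at 28 h against other oil (11.4%) and 10 in the F-test of oil groups (21.1%), which gave 2 without the filter (6.33%). Array weights gave 3, 29, 4 and 34 calls at 4, 16, 28 and 76 h (22.4%, 59.4%, 13.1% and 39.1% of all genes). Of the 34 calls at 76 h, 33 were higher and 1 lower. Against other oil the counts with array weights were 18, 24, 2 and 32 (50.4%, 56.1%, 15.9% and 54.6%). Oil at 28 h then gave 18 (41.7%), the oil F-test 26 (67.1%), the test of unequal responses 35 (66.3%) and the response at 76 h against 28 h 31 (30%). The cause was not tested.

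With 1 array left out, own-oil calls were 0 at 4 h, 0 to 5 at 16 h, 0 to 2 at 28 h and 16 to 26 at 76 h. Calls against other oil were 0 to 4, 0 to 8, 0 to 1 and 16 to 27. Oil at 28 h gave 1 to 8 calls and the oil F-test 1 to 6. The shares of all genes called in these fits are not given here. The labels state no source shared by arrays of 1 number, and same-numbered arrays correlated at -0.018 to 0.346, so the arrays were not treated as paired; that 15 of 24 arrays correlated best with their own number is a hint from the data, not the design. With the replicate block, 23 members were called at 76 h (17.4% of all genes), and against other oil 1 at 4 h (6.22%) and 1 at 16 h (4.39%). In alternatives added after seeing the data, 25 members were called at 76 h against other oil without the oil arrays of 28 h. The share of all genes called in that comparison is not given here. The median change at 76 h was 0.54 over the 37 members that pass without the progesterone arrays of 76 h. Low signal limits Cdc6, Tyms, E2f1, Ccne2 and Dtl, whose probe sets exceeded the array median on 1 or 0 of the other 21 arrays.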
